A study of Mus musculus with 6 samples.

Results

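The transcripts described here are the long noncoding RNAs (lncRNAs) that the deposited lncRNA table places in an intron of a protein-coding gene, on the same strand (intron sense-overlapping) or on the opposite strand (intronic antisense). A transcript was a member if it reached 0.1 FPKM (fragments per kilobase of transcript, scaled to the depth of the library) in at least 3 of the 6 libraries. Members numbered 416 of the 31550 transcripts in the table, which lists 3740 intronic transcripts in all. Of the members, 160 were sense only, 246 antisense only, and 10 were sense to 1 coding gene and antisense to another. RNA came from aortic vascular smooth muscle cells of C57BL/6 mice grown in medium with 10% fetal bovine serum. One group of 3 libraries is labelled Myocd knockdown, titled ADV and described as given a knockdown adenovirus. The other 3 are labelled control, titled Ctrl and described as given a negative control virus, for 48 h in both groups; the design text calls them wildtype. The labels name neither the knockdown sequence nor the promoter of the virus, and nothing says that the libraries of a group were grown as separate cultures. Every p-value therefore rests on library-to-library spread alone, and that spread may be technical.

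An intron can hold a transcription unit of its own, or leave RNA behind after splicing that an annotation lists as a separate transcript. Transcripts on the host's strand share sequence with the unspliced host RNA, whereas antisense transcripts need their own start. Some intronic antisense RNAs act on their host, the imprinted Airn in Igf2r being the known case, but most have no assigned role. Myocd encodes myocardin, the smooth muscle partner of serum response factor (SRF), which binds a DNA site named the CArG box near contractile genes.

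Promoter sequences from RefSeq (build GRCm38.p6, plus strand, 250 bases before to 50 after the start) are shown for 4 antisense lncRNAs described further on, matched by gene symbol. Whether each transcript model begins at that start was not checked. The first sequence belongs to the gene whose 2 annotated models gave opposite results, the second to the known imprinted transcript, and the fourth to the largest fitted rise. The third held the 1 CArG box found among the member starts inside a host. Capitals mark CG pairs, except in Dnm3os, where they mark the CArG box. They lie at chr13:64248450-64248749, chr17:12741061-12741360, chr1:162217373-162217672 and chr17:24528001-24528300.
1810034E14Rik: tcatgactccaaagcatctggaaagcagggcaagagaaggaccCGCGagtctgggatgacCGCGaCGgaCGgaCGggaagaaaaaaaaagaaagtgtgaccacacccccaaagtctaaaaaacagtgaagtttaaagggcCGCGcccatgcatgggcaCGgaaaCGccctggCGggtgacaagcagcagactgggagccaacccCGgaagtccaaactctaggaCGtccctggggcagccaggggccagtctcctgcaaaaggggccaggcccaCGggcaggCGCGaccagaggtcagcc
Airn: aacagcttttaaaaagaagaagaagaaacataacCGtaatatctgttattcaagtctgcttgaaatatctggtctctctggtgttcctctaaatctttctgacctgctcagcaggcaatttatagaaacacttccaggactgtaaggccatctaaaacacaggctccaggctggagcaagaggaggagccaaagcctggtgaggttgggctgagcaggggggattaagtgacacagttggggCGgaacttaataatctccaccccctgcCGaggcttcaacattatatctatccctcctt
Dnm3os: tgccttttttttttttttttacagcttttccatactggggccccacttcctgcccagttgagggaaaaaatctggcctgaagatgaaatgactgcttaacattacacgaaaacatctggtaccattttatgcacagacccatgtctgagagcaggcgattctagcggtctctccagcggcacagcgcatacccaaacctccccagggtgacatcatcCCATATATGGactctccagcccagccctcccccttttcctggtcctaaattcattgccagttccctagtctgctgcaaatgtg
Rab26os: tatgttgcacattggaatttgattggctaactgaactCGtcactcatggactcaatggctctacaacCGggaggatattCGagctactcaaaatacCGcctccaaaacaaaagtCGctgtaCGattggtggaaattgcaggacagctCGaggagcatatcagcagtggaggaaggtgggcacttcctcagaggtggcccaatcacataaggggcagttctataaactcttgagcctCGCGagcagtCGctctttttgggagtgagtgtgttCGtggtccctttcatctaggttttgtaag

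Of the members, 87 matched a RefSeq promoter by symbol. These gave 54 combinations of a start and a host that contains it, 17 sense and 37 antisense. A start inside more than 1 host counts once for each host. The start of C920009B18Rik counts in Raet1a, Raet1b and Raet1c, and that of E130112N10Rik in Vamp1 (sense) and Tapbpl (antisense). Antisense starts lay at a median of 31.9% of the host's length from the host's own start, with 18 of 37 in the first 25%. Sense starts lay at a median of 61.1% over the 17 combinations, with 7 of 17 in the first 25%. The repeated C920009B18Rik start (66.4% to 68.7%) raises that median. By the share in the first 25%, sense and antisense starts were closer than by the medians. The median number of CG pairs was 11 for antisense and 3 for sense starts, against 7 over all 32851 promoters of that length. A CArG box stood in 1 of 54 (1.85%) against 1.63% of all promoters, in the Dnm3os window shown, where it begins 33 bases before the start. The motif TATAAA, searched on both strands, stood in 14 of 54 (25.9%) against 13.6% of all promoters. The C920009B18Rik start holds it and is counted for each of its hosts, so the share over separate starts is lower.

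Myocd RNA went the other way from the group names. The libraries labelled knockdown held 131.7, 130.1 and 145.5 FPKM of it, and those labelled control 0.0355, 0 and 0.125 FPKM (limma log2 fold change 9.87, adjusted p = 1.11e-05). Groups are therefore called by their labels, and a rise or positive fold change means higher in the libraries labelled knockdown, where Myocd RNA was higher. Recovered fragments ranged from 7528152 to 9793783 per library over coding genes, from 1028765 to 1464415 over lncRNAs and from 10717 to 14287 over the members. Knockdown replicate 3 had the fewest of each. Smooth muscle markers summed to 519 to 547 FPKM in the libraries labelled knockdown and to 229 to 254 in those labelled control, with Myh11 and Cnn1 under 0.5 FPKM in every library. Most of that difference was Acta2, at 332 to 346 against 63.1 to 71.5 FPKM. Lmod1 and Des also passed by limma (log2 fold changes 2.22 and 0.20), while Tagln (4.23), Smtn (-0.02) and Mylk (0.08) did not. The summed endothelial markers were at 1.30 to 2.34 against 0.468 to 1.04 FPKM (5 of 6 under 0.5 FPKM in every library, all but Vwf), macrophage markers at 4.23 to 5.53 against 2.83 to 5.30 (3 of 5 under 0.5) and fibroblast markers at 190 to 214 against 192 to 213 (1 of 6 under 0.5). Vwf itself passed by limma (log2 fold change 2.28, adjusted p = 0.0346), at 0.963 to 1.61 against 0.102 to 0.306 FPKM. Mesothelial markers, nearly all Msln, were at 76.4 to 88.6 against 73.4 to 78.5 FPKM (1 of 4 under 0.5), and adipocyte markers at 0 to 1.96 against 0.154 to 0.405 (3 of 4 under 0.5). Their part in the results on the intronic transcripts was not tested, and in bulk RNA fewer cells of a type and less RNA per cell cannot be told apart.

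Most intronic lncRNAs were scarce. Their median level over the 6 libraries was 0.633 FPKM, against 0.606 FPKM for all 4955 lncRNA transcripts tested, and 141 of 416 reached 1 FPKM. Sense members stood at a median of 1.21 FPKM and antisense members at 0.385 FPKM. In recovered fragments the median member had 35.8 in the 6 libraries together, 67.85 for sense and 27.0 for antisense members, and 258 of 416 had under 60. Only 63 had at least 300. All 6 libraries reached the 0.1 FPKM limit for 222 members, while 15 passed through control libraries alone and 10 through knockdown libraries alone; a member of the last kinds had to differ in level. By source the members came from Ensembl (156), Genbank (121), UCSC known genes (63), RefSeq (37) and published assemblies (28 from Alexander et al and 11 from Lei Sun et al).

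The most abundant intronic transcript was 2_00000176, antisense in Boll, the gene of a germ-cell RNA-binding protein. The libraries labelled knockdown had 685, 669 and 573 FPKM of it and those labelled control 553, 602 and 531 FPKM, so the groups overlapped (limma adjusted p = 0.432). Boll itself was at 0 in 5 libraries and at 0.193 FPKM in control replicate 3. The transcript is 266 nt long, and for such short models 1 fragment weighs heavily in FPKM: it was worth 1.33 FPKM here, against a median of 0.0464 FPKM in members of 1000 nt or more. The leading sense member was TCONS_00025213, 1060 nt, in AI506816, whose level was not analysed here. It had 1016, 959 and 737 fragments against 1282, 1268 and 1205, that is 104 ± 8.59 against 129 ± 5.66 FPKM (SD, n = 3 each). Every library labelled control was above every library labelled knockdown, but the difference did not pass (log2 fold change -0.32, SE 0.09, adjusted p = 0.153).

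Next in level came transcripts in Ddx39b, Ifrd1 and Gm4924 on the sense side and in Jarid2, Clvs1 and Gm26992 on the antisense side. Gm17024, sense in Ifrd1, a gene of the interferon-related developmental regulators, was steady at 17.7 to 22.4 FPKM in all 6 libraries. TCONS_00002241, 203 nt and sense in Gm4924, was not: knockdown replicate 3 had 54.8 FPKM, from 15.7 fragments, and the other 5 libraries 2.84 to 13.8 FPKM. Gm11816, antisense in Clvs1, ranged from 4.98 to 15.1 FPKM. A 625 nt model of Xist, the RNA of X-chromosome inactivation, is paired by the table with Gm26992 and stood at 6.20 to 14.8 FPKM. None of these 4 passed the test.

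Where the host was expressed, most intronic lncRNAs sat far below it. Both could be tested in 345 pairs of a member and a host (coding filter 0.5 FPKM in at least 3 libraries), where the median host stood at 14.7 FPKM and the median member at 4.50% of its host. Sense members reached 6.48% and antisense members 3.18%. Across the 159 sense pairs the level of the member followed that of the host with a Spearman coefficient of 0.39, and across the 186 antisense pairs the coefficient was -0.02. These are descriptions over pairs that share libraries and, in part, hosts. The library kit keeps strand, but whether the counting used it is not given in the sources used here, so reads from a host and an opposite-strand transcript may not have been told apart. The member was above its host in 12 pairs. In another 105 pairs the coding gene itself was too low to test, 86 of 272 antisense pairs and 19 of 178 sense pairs. There the member was above the host in 100 of 105 pairs, with a median of 0.564 FPKM against 0.0111 FPKM. In 46 of these pairs, which hold 83 distinct hosts in all, the host was listed at 0 in all 6 libraries. In 19 of all 469 pairs the transcript is longer than the span of the coding gene. Of 77 members matched by symbol to a RefSeq start on their strand, under a name other than the host's, 58 had a start inside a host. The word host is thus the table's pairing and not always a gene that contains the transcript.

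**Figure D1:**
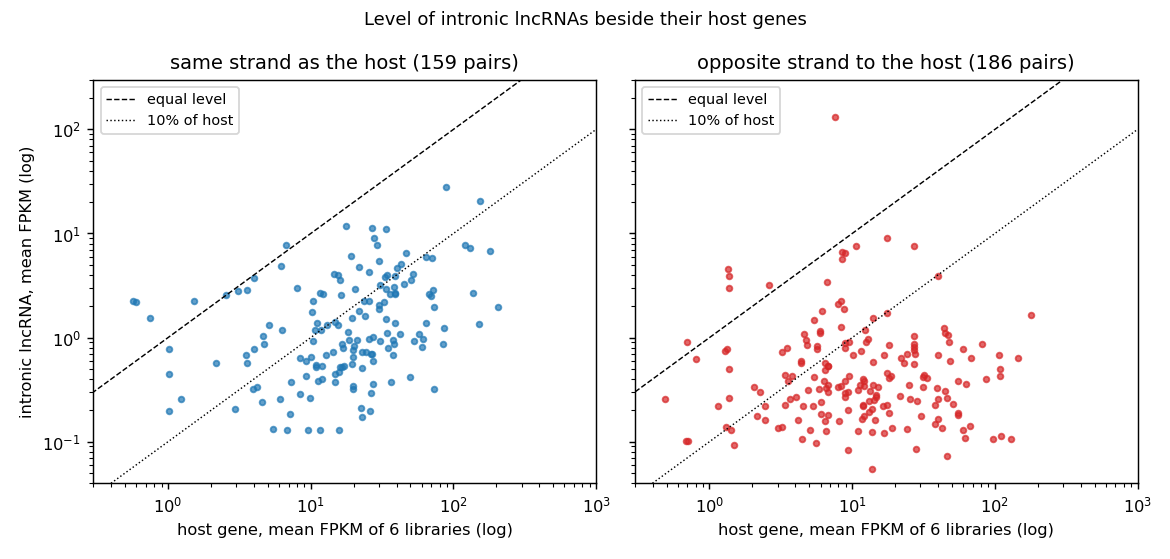
Mean FPKM over 6 libraries of each intronic lncRNA (vertical, log scale) against that of its host gene (horizontal, log scale) for 159 pairs on the same strand (left) and 186 on opposite strands (right); the dashed line marks equal levels and the dotted line 10% of the host. Most points lie under the dotted line, the Jarid2 antisense transcript at 132.6 FPKM stands far above equality, and the Spearman coefficient is 0.39 on the left and -0.02 on the right.

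Among members above their hosts, chosen after their values were seen, were both models of Dnm3os, the antisense transcript in Dnm3 that carries the precursors of miR-199a and miR-214. ENSMUST00000178978 stood at 4.82, 4.53 and 3.22 against 3.88, 3.51 and 3.36 FPKM, while Dnm3, the gene of dynamin 3, stood at 0.775 to 2.08 FPKM. Its groups overlapped (adjusted p = 0.677). The 2 models together had 638, 618 and 451 fragments against 606, 584 and 588, with a log2 fold change of 0.09 (adjusted p = 0.770). No difference in Dnm3os was detected between the groups.

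Between the groups, 19 of 416 intronic lncRNAs passed the limma test (4.57%), 7 higher in the libraries labelled knockdown and 12 lower. Over all 4955 lncRNA transcripts tested 4.26% passed, 2.22% higher and 2.04% lower, so the share among intronic members was near that background. Sense members gave 7 of 160 (2 rose, 5 fell), antisense members 11 of 246 (5 rose, 6 fell), and the 10 transcripts of mixed relationship gave 1, which fell. The median log2 fold change was -0.06 over the members and 0.0035 over all tested transcripts, and the median size of the change 0.51 against 0.48. Groups did not overlap for 112 of 416 members, with 62 of these higher and 50 lower under the knockdown label, against 23.3% of all tested transcripts. An exact permutation test of 1 transcript cannot go below p = 0.1 with 3 against 3 libraries.

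Nearly all of these calls were of very few fragments. For 17 of the 19, every library of 1 group was at 0 fragments (under 0.5 after the sharing of fragments between models), a state found in 4.74% of all tested transcripts, of which 76.2% passed. All 17 had reached the 0.1 FPKM limit through 1 group alone, so the filter itself required them to differ, and their p-values support no difference. Of the 25 members that entered that way 17 passed, and of the 391 others 2 passed. With fragments in both groups, 2 of 395 members passed, against 0.678% of such transcripts. The 19 had a median of 9.0 fragments in the 6 libraries together, 12 of them at most 10, and the fewest 4.0. Under 10 fragments 10 of 63 members passed, and from 300 upwards 1 of 63, with a median size of change of 0.19 and a range of -0.53 to 0.91 on the log2 scale. The quasi-likelihood test of edgeR on recovered fragments called 0 of 416, with 56 at an unadjusted p under 0.05 (background 0.0202% and 13.3%), and DESeq2 called 4 of the 269 for which it gave an adjusted p (background 1.64%). By limma 69 members were at an unadjusted p under 0.05 (background 16.2%). Without knockdown replicate 1, 2 or 3 the limma count was 8, 0 and 15, and without control replicate 1, 2 or 3 it was 8, 8 and 15, with none of the 19 passing in all 6 cases.

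**Figure D2:**
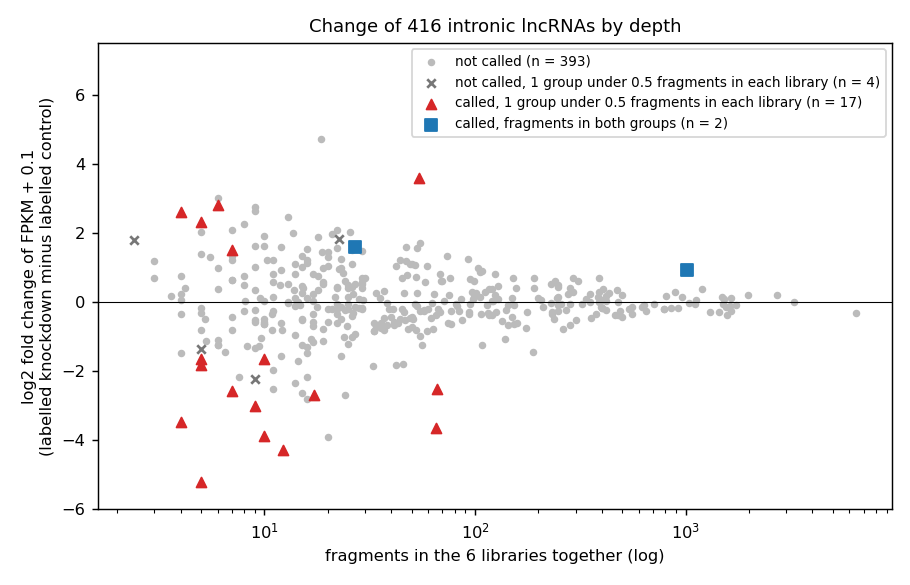
Log2 fold change of FPKM + 0.1 (vertical, labelled knockdown minus labelled control) for each of 416 intronic lncRNAs against its fragments in the 6 libraries together (horizontal, log scale). Triangles are the 17 called members with 1 group at 0, squares the 2 called members with fragments in both groups, crosses 4 uncalled members with a group at 0; the spread narrows from left to right.

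The antisense transcript in Jarid2 was the deepest of the called members and the 1 call with at least 300 fragments. Jarid2 is a partner of the Polycomb complex that methylates histone H3. The transcript, 2_00008059, is 327 nt on the minus strand within the locus chr13:44729474-44921643 (mm10, the locus of the pair; the transcript's own position is not in the tables). Its level was 168, 164 and 186 FPKM under the knockdown label and 78.4, 95.7 and 103 FPKM under the control label, from 211, 206 and 221 against 106, 122 and 153 fragments. The lowest library labelled knockdown thus lay above the highest labelled control. It rose 1.87-fold (log2 fold change 0.91, SE 0.12, limma adjusted p = 0.0185), while Jarid2 stood at 7.59 ± 0.501 and 7.48 ± 0.303 FPKM (SD, n = 3 each; log2 fold change 0.02, adjusted p = 0.919). DESeq2 called the transcript (adjusted p = 0.0441) and edgeR did not (adjusted p = 0.181). Without knockdown replicate 1, knockdown replicate 2 or control replicate 2 the limma adjusted p was 0.0598, 0.0619 and 0.0619. The ratio to Jarid2 did not pass (log2 0.89, adjusted p = 0.0662).

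AK078997, antisense in Abcb8, was the other call with fragments in both groups. Abcb8 encodes a mitochondrial ABC transporter. The 443 nt transcript lies on the minus strand in the locus chr5:24393663-24410054. It was at 2.91, 2.51 and 3.19 FPKM against 0.769, 0.814 and 1.09 FPKM, from 7, 6 and 7 against 2, 2 and 3 fragments, and the groups did not overlap. The fold was 3.22 (log2 fold change 1.59, SE 0.22, limma adjusted p = 0.0207), on 20 fragments against 7, and neither edgeR (adjusted p = 0.276) nor DESeq2 (0.928) called it. Abcb8 stood at 8.29 ± 0.899 against 9.10 ± 0.998 FPKM (adjusted p = 0.550). The ratio of AK078997 to Abcb8 rose (log2 1.72, SE 0.27, limma adjusted p = 0.0358 over 2784 pairs).

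The locus 1810034E14Rik gave both the highest log2 fold change among called members and one of the lowest, from 2 models of the same gene. Both are antisense in Cdc14b, the gene of a cell-cycle phosphatase, in the locus chr13:64192545-64274973. The RefSeq promoter matched to their gene symbol is the first sequence shown. The Ensembl model ENSMUST00000181403 (1756 nt) had 16, 21 and 17 fragments in the libraries labelled knockdown and 0, 0.1 and 0 in those labelled control. The RefSeq model NR_045798 (1802 nt) had 0, 0 and 0 against 22, 25.9 and 17. So in each library nearly all fragments of the locus lay on 1 model, and the model changed with the group. Taken alone the first was 19.97-fold higher and the second 19.5-fold lower against a floor of 3 fragments over the group at 0. These folds leave out counting error in the higher group. The limma log2 fold changes were 3.59 and -3.65 (adjusted p = 0.0107 for both, each model having passed the filter through 1 group only). Summed, the 2 models had 16, 21 and 17 against 22, 26 and 17 fragments, and the groups shared the value 17 (log2 fold change -0.05, SE 0.26, adjusted p = 0.952). Cdc14b stood at 4.23 ± 0.349 against 4.58 ± 0.395 FPKM (adjusted p = 0.624). These 2 models and the RefSeq model of 2700054A10Rik are 3 of the 4 members that DESeq2 called.

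**Figure D3:**
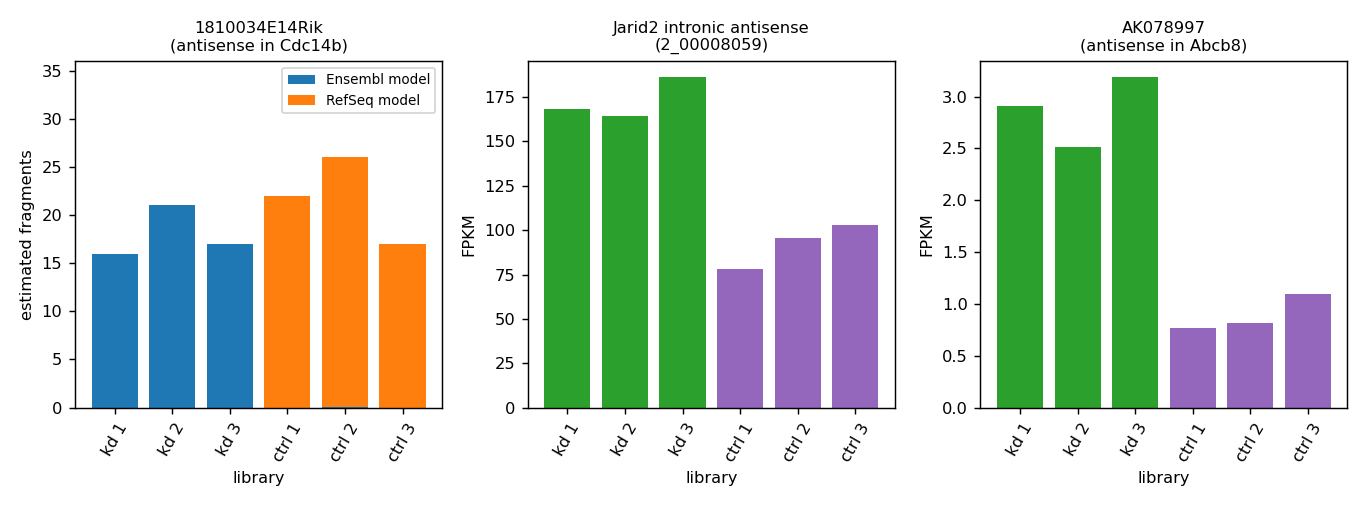
Values in each of the 6 libraries (kd, labelled knockdown; ctrl, labelled control): estimated fragments of 1810034E14Rik by model as stacked bars (left), and FPKM of the antisense transcripts in Jarid2 (middle) and Abcb8 (right). The left panel changes colour between groups at similar height, 16 to 21 against 17 to 26 fragments, while in the other panels every kd bar exceeds every ctrl bar.

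Other called members with further models in the table, partly chosen after their values were seen, also mostly lost their call when the models were added up. The RefSeq model of 2700054A10Rik, NR_045437, had 0, 0 and 0 against 21, 20.7 and 24 fragments. A UCSC model of the same gene had 44, 73.1 and 27.7 against 31.4, 31.4 and 31.6, and another had 21.5 in knockdown replicate 3 and 0 elsewhere. The gene as a whole had 44, 73.1 and 49.2 against 52.4, 52.1 and 55.6 fragments (adjusted p = 0.823). Gm8378, sense in Ston2, went from a call of 2, 3 and 1 against 0 fragments to 17, 13 and 8 against 12, 15 and 9 for its 3 models (adjusted p = 0.494), and Vax2os, antisense in the eye homeobox gene Vax2, from 3, 2 and 2 against 0 to 14, 15 and 11 against 16.9, 21 and 14 (adjusted p = 0.723). All other models in the Vax2os sum are listed as bidirectional or intergenic, not as intronic. In 2700069I18Rik, antisense in Zfhx4, the sum was 5, 4 and 6 against 18, 13 and 12 fragments: the groups stayed apart, without passing (log2 fold change -1.06, adjusted p = 0.192). XLOC_019305, beside Gm17655, had 1, 0 and 0 against 1, 8 and 4 fragments over its 3 models; this sum did not pass, but its log2 fold change was still -3.03 (SE 1.45, adjusted p = 0.385). Of 8 called members with another model, 1 still passed as a sum, 4933405D12Rik, whose other model is at 0.

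The called members without another model mostly rest on 1 to 5 fragments a library, and those given here are among the 17 that entered through 1 group alone. Gm15562, sense in Samd4, the gene of a translational repressor, had 0 fragments in the libraries labelled knockdown and 3, 4 and 3 in those labelled control. Against the same floor of 3 fragments, without counting error in the control group, it was 3.0-fold lower (limma log2 fold change -3.88, adjusted p = 0.0107). Samd4 stood at 26.1 ± 0.568 and 26.4 ± 2.48 FPKM. Gm16049, sense in Tcte2, had 0 against 3, 2 and 2, in the same way 2.10-fold lower against the floor (adjusted p = 0.0127). Tcte2 was at 1.13, 2.11 and 1.84 against 0.621, 0.652 and 1.04 FPKM without passing. Gm22596, sense in Dnttip1, a misc_RNA model, had 0 against 2, 1 and 1 fragments, and Gm11722, sense in Psmd12, a proteasome subunit gene, 0 against 3, 5 and 1. AK019367, antisense in the amino acid transporter gene Slc3a1, had the lowest log2 fold change of all members, -5.23 (adjusted p = 0.0170). It came from 1.1, 3.3 and 0.7 fragments in the control libraries, which this 213 nt model turned into 3.06, 10.0 and 1.60 FPKM. On the rising side, 2_00033168, sense in the autophagy gene Atg4a had 2, 1 and 1 against 0 and AK143091, antisense in Txndc11, 2, 2 and 1 against 0. Slc3a1 was too low to test, and no other coding gene named beside these transcripts passed.

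**Figure D4:**
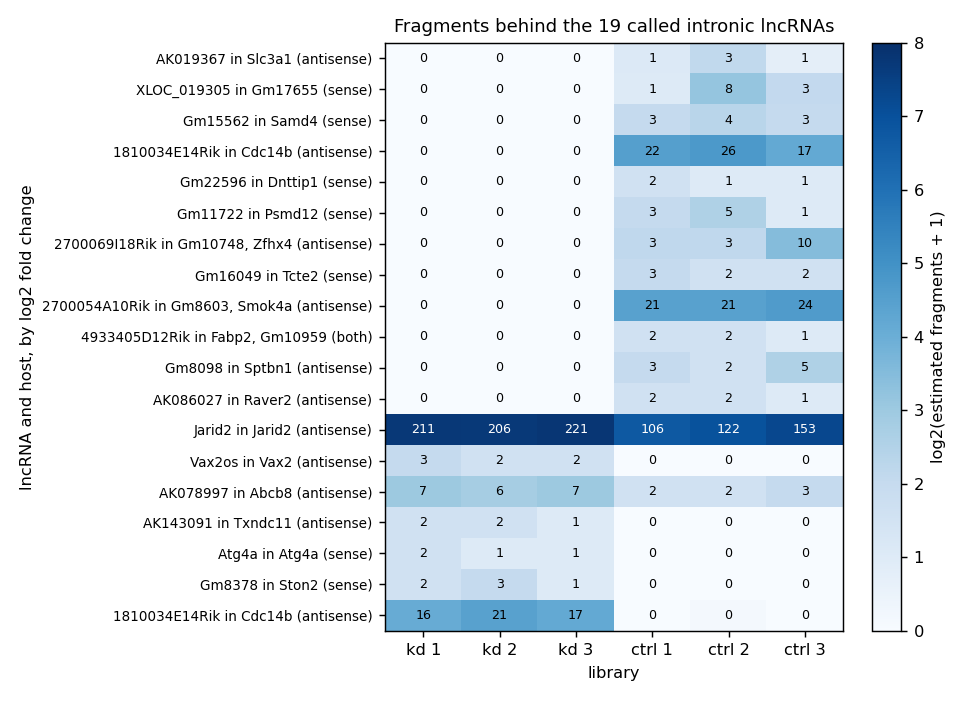
Estimated fragments, rounded, in each library (columns) for the 19 called intronic lncRNAs (rows, by log2 fold change, with the coding gene and strand relation); colour is log2(fragments + 1). The antisense transcripts in Jarid2 and Abcb8 are the rows with fragments in both groups, and the 2 rows of 1810034E14Rik mirror each other.

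Some large differences did not pass. Rab26os, antisense to the vesicle GTPase gene Rab26 and with the fourth sequence shown, had 5.3, 4.4 and 7.6 fragments in the libraries labelled knockdown and 0, 0 and 1.3 in those labelled control. The groups did not overlap, and its fitted log2 fold change of 4.70 (SE 1.02) was the highest of all members, with limma adjusted p = 0.0713 and edgeR adjusted p = 0.237. With the sums over each group rounded to whole fragments, 17 and 1, the ratio of fragments per library size was 18.9, with an exact 95% interval of 2.96 to 789 for counting error alone. Rab26 had 2, 2 and 0 against 4, 3 and 5 fragments, too low to test. Without control replicate 3, the 1 control library with a fragment, the adjusted p of Rab26os passed. The control group is then at 0 and the filter is passed through knockdown libraries alone, so this pass adds no support. Gm24436, a misc_RNA in Bre, had 2, 2 and 1 against 0, 0 and 1 fragments (adjusted p = 0.194).

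The host genes passed the test about as often as other coding genes. Of 291 tested hosts 13 passed by limma (4.47%), 9 higher and 4 lower, against 3.44% of 11612 coding genes (1.83% higher, 1.61% lower), and edgeR called 28 of them against a background of 9.78%. The median size of the host change was 0.13 on the log2 scale, as for all coding genes (0.13). None of the 19 called lncRNAs lay in a called host. A called host stood in only 4.64% of the 345 tested pairs, so 0 of 19 says little. The 13 called hosts hold 16 pairs, 4 sense and 12 antisense, in which no lncRNA passed by limma or edgeR, the lowest limma adjusted p being 0.113, and no ratio of lncRNA to host passed. At an unadjusted p under 0.05 limma counted 3 of these 16 lncRNAs (18.75%) and edgeR 2 (12.5%), near the 16.2% and 13.3% of all tested lncRNA transcripts. Without any 1 library the limma count of hosts fell to between 0 and 4.

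Of the 9 hosts that rose, Tnc and Vcan were on the matrix list. Tnc, which encodes the matrix protein tenascin C, rose from 5.02 ± 0.376 to 8.16 ± 0.463 FPKM (log2 fold change 0.69, limma adjusted p = 0.0186), beside AK033210 on the other strand at 0.0756, 0.154 and 0.271 against 0.0350, 0.0738 and 0.145 FPKM. Vcan, the gene of the proteoglycan versican, rose from 101 ± 2.29 to 117 ± 2.50 FPKM (adjusted p = 0.0383). In it the 52401 nt antisense transcript Gm4117 had 295, 259 and 237 against 325, 319 and 301 fragments, and the levels of both groups overlapped at 0.457 to 0.538 FPKM. Baalc and its antisense transcript Gm26704 were both higher in each library labelled knockdown, Baalc at 7.68 to 8.71 against 4.48 to 5.58 FPKM (adjusted p = 0.0270) and Gm26704 at 0.290, 0.480 and 0.694 against 0.235, 0.142 and 0.139 FPKM (adjusted p = 0.285). Oxr1, an oxidation resistance gene, stood at 74.6 to 77.6 against 59.1 to 61.2 FPKM (adjusted p = 0.0106), with Gm26854 opposite it at 0.953, 0.772 and 0.873 against 0.352, 0.186 and 0.700 FPKM (adjusted p = 0.333). Of the 3 antisense members in Masp1, a protease of the lectin complement pathway that rose from 15.3 ± 0.799 to 19.9 ± 0.599 FPKM, TCONS_00012123 was the most abundant, with 8.34, 10.9 and 14.5 against 6.35, 9.03 and 5.38 FPKM. Its groups overlapped at knockdown replicate 1 (adjusted p = 0.295).

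Of the 4 hosts that fell, named with their values known, Sri fell least (log2 fold change -0.21, adjusted p = 0.0431) and was not called by edgeR (adjusted p = 0.541). Stag1, a cohesin subunit gene, fell from 35.8 ± 6.47 to 20.2 ± 2.16 FPKM (log2 fold change -0.82, adjusted p = 0.0288). In fragments its fall was smaller, 900, 862 and 771 against 1143, 1103 and 1079 (edgeR log2 fold change -0.22, adjusted p = 0.00817), while AK136448 on its other strand had 0 fragments against 1, 1 and 3 and did not pass. Sdccag8, a centrosomal gene, fell from 10.8 ± 0.359 to 7.04 ± 1.03 FPKM (log2 fold change -0.62, adjusted p = 0.0410). Hmga2-ps1 opposite it stood at 5.86, 5.67 and 5.68 against 6.79, 6.54 and 8.73 FPKM, every library labelled knockdown below every one labelled control (log2 fold change -0.34, SE 0.15, adjusted p = 0.338). Ddx39b, an RNA helicase gene of mRNA export, also fell, from 103 ± 8.25 to 76.2 ± 3.97 FPKM (adjusted p = 0.0252). Its sense intronic transcript 2_00012563 had 87, 60 and 46 against 56, 56 and 80 fragments, and these overlapped.

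**Figure D5:**
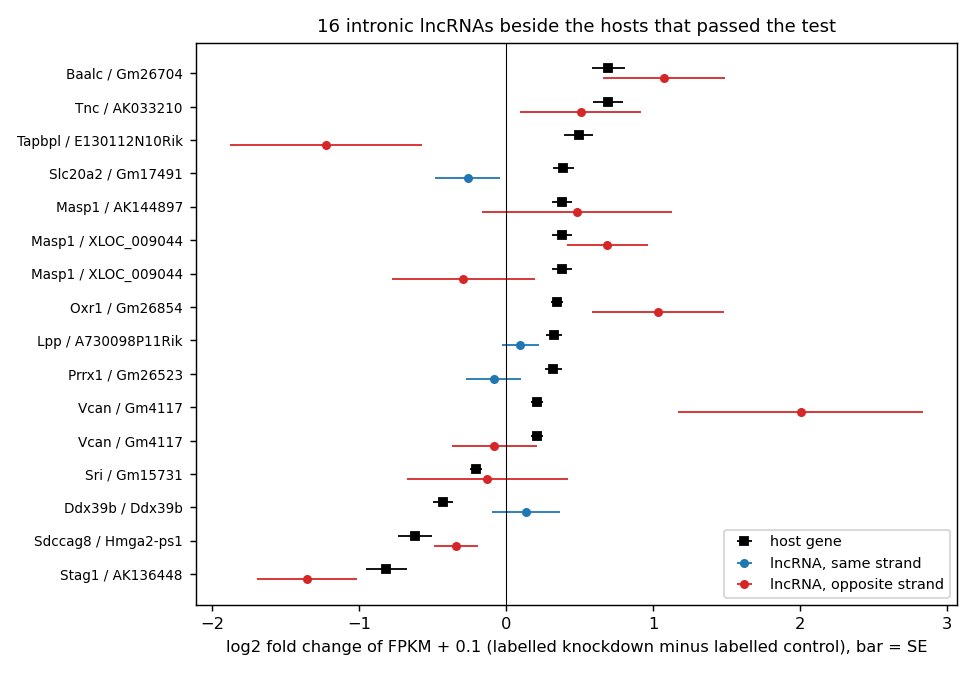
Log2 fold change of FPKM + 0.1 (labelled knockdown minus labelled control, bars 1 SE) for the 13 hosts that passed the test (black squares) and the intronic lncRNA of each of their 16 pairs (circles, blue same strand, red opposite strand; names are host / lncRNA). Host bars are short and clear of 0, while lncRNA bars are long, and no lncRNA passed.

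The ratio of lncRNA to host, a test of whether the pair changed by different amounts, passed in 10 of 345 pairs, against 2.87% of 2784 pairs of any lncRNA and its coding partner. It was higher in 6 and lower in 4 and, except for 1 pair, the lncRNA itself was called. In 9 of the 10 the lncRNA had a group at 0 and had passed the filter through the other group alone, and AK078997 in Abcb8 was the exception. The pair without a called lncRNA was 2_00028404 in Wdr73, with 0.4, 1.2 and 0.9 fragments against 0 (ratio log2 2.07, adjusted p = 0.0459; lncRNA adjusted p = 0.0539). Leaving out 1 library gave between 3 and 8 such pairs.

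A set of 10 hosts, with 15 intronic lncRNAs, 4 of them models of Airn, stood on the 12 gene lists used. None of these lncRNAs passed by limma or edgeR. At an unadjusted p under 0.05 limma counted 0 and edgeR 1 of the 15, against 16.2% and 13.3% of all tested lncRNA transcripts. The lists of contractile genes (24 tested, 11 rose), cell cycle (40 tested, 11 fell), TGF-beta and BMP (24 tested, 2 rose), immediate early (21 tested, 6 fell) and inflammatory genes (27 tested, 6 rose, 2 fell) held no host. These counts stand beside the 1.83% of coding genes that rose and 1.61% that fell. Of SRF cofactors and smooth muscle regulators 21 were tested and 2 rose, and 3 are hosts. Among these Prrx1, a mesenchymal homeobox gene, rose from 31.9 ± 0.894 to 39.8 ± 2.08 FPKM (adjusted p = 0.0337), with Gm26523 on its strand at 2.78, 2.70 and 2.10 against 2.98, 2.41 and 2.65 FPKM. Mef2a, a MADS-box factor, was at 31.7 ± 1.68 against 28.1 ± 2.72 FPKM (adjusted p = 0.257), and AK162351 on its strand was higher in every library labelled knockdown, 5.82, 7.35 and 5.33 against 4.81, 4.89 and 4.49 FPKM (log2 fold change 0.36, SE 0.16, adjusted p = 0.342). Tead1, the DNA-binding partner of YAP and also on the YAP and TEAD list (15 tested, 2 rose), was at 37.1 to 39.8 against 36.4 to 38.4 FPKM, with its antisense AK009335 at 2, 2 and 2 against 2, 4 and 8 fragments. On the focal adhesion and actin list (31 tested, 4 rose), Lpp, a LIM protein gene of adhesion sites, rose from 38.1 ± 1.96 to 47.8 ± 1.28 FPKM (adjusted p = 0.0286), and A730098P11Rik in it stood at 5.16, 5.0 and 5.48 against 5.04, 5.11 and 4.48 FPKM. Limk2, a kinase of cofilin, and its transcript Gm11948 did not pass.

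On the matrix and elastic fibre list (35 tested, 8 rose) the hosts were Tnc and Vcan. The p53 targets (15 tested, 5 rose) held Sesn2, a stress-response gene at 17.3 ± 1.16 against 15.8 ± 1.05 FPKM, whose sense transcript Gm12981 had at most 4.1 fragments in a library. The splicing and RNA processing list (31 tested, 2 fell) held Celf2, an RNA-binding protein gene, at 35.1 ± 1.51 against 32.4 ± 2.34 FPKM. Its sense transcript 5031426D15Rik was deep, at 157, 172 and 178 against 208, 209 and 181 fragments, and level with 2.84 ± 0.456 against 2.97 ± 0.226 FPKM (log2 fold change -0.07, SE 0.18, adjusted p = 0.883). The misc_RNA Gm26315 in the same gene had 22 and 27 fragments in the replicate 3 libraries and 5 to 10 in the other 4, a split by replicate number and not by group.

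Airn, the imprinted antisense transcript that represses Igf2r in cis, gave the 4 members in the host on the growth factor list (23 tested), Igf2r being the receptor that clears IGF2. The 10 models of Airn had 91, 71 and 87 fragments in the libraries labelled knockdown and 80, 85 and 106 in those labelled control, with overlapping groups (log2 fold change 0.05, SE 0.18, adjusted p = 0.917). This sum includes ENSMUST00000161890, a model listed as intergenic, with 32, 27 and 39 against 36, 36.6 and 46 fragments. The deepest of the 4 member models, ENSMUST00000079529, had 48.9, 41.3 and 13.3 against 39, 43.7 and 46.5 fragments. The low value in knockdown replicate 3 went with 33.7 fragments on NR_027784, which had 9.6 in control replicate 3 and 0 in the other 4 libraries. Igf2r stood at 42.4, 42.1 and 42.1 against 38.1, 37.0 and 38.9 FPKM, higher in every library labelled knockdown; it did not pass by limma (log2 fold change 0.15, SE 0.04, adjusted p = 0.108) and was called by edgeR (adjusted p = 0.00713). Peg13, another imprinted transcript, sense in Trappc9 and picked with its values known, had 2.46 ± 0.0636 against 2.84 ± 0.232 FPKM, lower in every library labelled knockdown without passing (log2 fold change -0.20, SE 0.15, adjusted p = 0.597).

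Among further members listed under a gene symbol, Csnk2a2, sense in the casein kinase subunit gene of that name, had 47, 56 and 46 against 64, 56 and 53 fragments (log2 fold change -0.05, SE 0.13, adjusted p = 0.879). The transcript listed as M31 chromobox, in the heterochromatin protein gene Cbx1, was at 9.85, 11.6 and 9.10 against 7.69, 14.7 and 14.5 FPKM (adjusted p = 0.757), and Phxr1, in the DNA repair gene Dclre1c, had 5, 2 and 6 against 5, 4 and 3 fragments (adjusted p = 0.912). The groups of these 3 overlapped, over few fragments in Phxr1 and over a wide range in M31 chromobox.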

How the data were processed

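Ribosome-depleted, stranded total RNA libraries were made from 3 samples of each group, per the labels' protocols. Per the submitters' processing notes, cutadapt, HISAT2 2.0.4, Cufflinks and Cuffdiff 2.2.1 were used. It is not given in the sources used here whether strand was used in counting. The FPKM values were computed by the authors per transcript (lncRNA table) or gene (mRNA table). The deposited estimated counts are fragments multiplied by a constant of the library (0.916 to 1.20), which was divided out here. Of the recovered values above 0, 90.1% to 90.4% (coding) and 70.3% to 71.7% (lncRNA) lay within 0.01 of a whole number, since models share fragments.

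The 56348 lncRNA rows held 31550 transcripts, and the 22565 mRNA rows 22482 symbols, whose rows were summed. The filters were 0.1 FPKM (lncRNA) and 0.5 FPKM (coding) in at least 3 of 6 libraries, and no Snhg transcript had to be left out. Tests were limma 3.58.1 (R 4.3.3) with intensity trend on log2(FPKM + 0.1), two-sided, with Benjamini-Hochberg adjustment over each whole table and a threshold of 0.05. Every adjusted p without a named tool is from limma, and fold changes on this scale understate those of low transcripts. The ratio test used log2(lncRNA + 0.1) minus log2(host + 0.1). Alternatives were edgeR 4.0.16, DESeq2 1.42.0 (rounded counts), other pseudocounts, filters and scalings, a replicate block and leaving out libraries. Replicates of a group differed by more than sampling noise (chi-square per gene 2.44 to 6.01).

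The members and gene lists were chosen with earlier results of these data known. Named are the called members with the largest changes, the most abundant, those with a called or listed host or a called ratio, and those with a gene symbol; others are said to be picked with values known. Coordinates are mm10, whose gene starts equal those of RefSeq GRCm38.p6 for 6261 of 20206 genes once the tables' zero-based starts are shifted by 1 base. Locus coordinates span bundles of overlapping genes.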

Additional observations from a re-analysis of the deposited data

How the results depend on the processing

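The number of calls among intronic lncRNAs moved with the processing. The 19 calls became 23 with a pseudocount of 0.01, all 19 shared, and 21 without replicate 3 of both groups, 15 shared. All 4955 lncRNA transcripts gave 211 calls with the test used, 79 with a pseudocount of 1, 88 without a filter, 62 with a stricter filter, 59 by DESeq2, 1 by edgeR on rounded counts, 1 with edgeR's own filter and 1 on recovered fragments (an alternative chosen after seeing the data). Sense members gave 7 calls, which became 2, 2, 2, 0, 0, 0 and 0 in the same order, and 4 with the models of a gene summed. Antisense members gave 11 calls, which became 6, 3, 5, 4, 0, 0 and 0, and 5 when summed. At an unadjusted p under 0.05, edgeR on recovered fragments counted 25 sense and 30 antisense members. Hosts gave 13 calls, against 4 without the trend, 26 by DESeq2 and 28 in each of the 3 edgeR fits. Ratios gave 10 calls, against 1 with a pseudocount of 1, 6 without a filter and 5 with a stricter filter. Leaving out 1 library in turn gave 10 to 298 calls over all lncRNAs, 0 to 7 sense, 0 to 9 antisense, 0 to 4 hosts and 3 to 8 ratios, with the lowest lncRNA counts without knockdown replicate 2. The median log2 fold change of the members then lay between -0.0495 and -0.0017. Without replicate 3 of both groups it was 0.0125, a change of sign from -0.06, with 349 calls over all lncRNAs, 2 hosts and 2 ratios. Same-numbered deviations from the group mean correlated by -0.006 to 0.026 in lncRNAs and by -0.004 to 0.0999 in coding genes. Unlike numbers gave -0.0240 to 0.0135 and -0.0876 to 0.0588, and the highest value of each was between the replicate 3 libraries. Such correlations cannot show whether equal numbers share a culture or day, which was not tested. With the replicate block there was 1 call over all lncRNAs, 0 sense, 0 antisense, 4 hosts and 0 ratios. The cause of these changes was not tested. Among named results, no called member, host or ratio changed sign under any alternative run, while some uncalled members did. Depth limits what can be compared, with 258 of 416 members under 60 fragments.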
